A study of Homo sapiens with 12 samples.

Results

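The GATA1 and GATA2 genes encode the zinc finger transcription factors whose exchange on DNA, the GATA switch, accompanies red cell formation. At these genes, 13 listed ChIP-seq intervals were examined, of 24658 distinct intervals in all. Members were the rows of both lists, GATA1 and TAL1 in control K562 cells, that overlapped chromosome X, 48620000 to 48680000 (the GATA1 locus, 60 kb, band Xp11.23), or chromosome 3, 128180000 to 128350000 (the GATA2 locus, 170 kb, band 3q21.3). Positions are those of hg19, counted from 1. K562 is a human erythroleukemia line. The label of these cells reads "control", and whether they carried a vector was not stated there. The antibodies were against GATA1 and TAL1, on chromatin cut with micrococcal nuclease (MNase), with 1 library per antibody and condition, so replicate error is unknown throughout and no test was made. The title of the TAL1 library also carries the tag "Sp", which the title of the GATA1 library lacks and which neither title explains. The series holds 12 libraries, of control, GATA1 knockdown and TAL1 knockdown cells. The 10 others, among them every knockdown library, were not analysed here, so nothing was measured of how either knockdown acts on these loci.

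GATA2 maintains blood stem and progenitor cells, whereas GATA1 is required for erythroid and megakaryocytic maturation. In the switch, GATA1 takes over GATA sites at the GATA2 gene that GATA2 itself had held, and GATA2 transcription falls. GATA1 also binds regulatory elements of its own gene. TAL1 binds E-boxes through its helix-loop-helix domain and is linked to GATA1 by the bridging proteins LMO2 and LDB1 at many erythroid regulatory elements. Which of these elements carry TAL1 as well as GATA1 is the comparison that the control lists allow.

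Distances are from the gene starts, which the selection rule gives to the nearest kb: 48645 kb for GATA1, which is read toward higher positions and ends at 48653 kb, and 128212 kb for GATA2, which is read toward lower positions and ends at 128198 kb. Each distance therefore carries an uncertainty of up to 0.5 kb. No listed interval lay across either rounded start. The sequences of these anchor points are shown because all distances refer to them. They are the 250 bases before each start in RefSeq, build GRCh38.p14, in the direction of transcription. Their positions belong to that build and cannot be set against those of the intervals. RefSeq gives GATA2 a pair of starts, 4.67 kb apart, of which the upstream one is the anchor. Capitals mark E-boxes (CANNTG, the sequence class bound by TAL1 dimers).
GATA1, chrX:48786340-48786589, plus strand: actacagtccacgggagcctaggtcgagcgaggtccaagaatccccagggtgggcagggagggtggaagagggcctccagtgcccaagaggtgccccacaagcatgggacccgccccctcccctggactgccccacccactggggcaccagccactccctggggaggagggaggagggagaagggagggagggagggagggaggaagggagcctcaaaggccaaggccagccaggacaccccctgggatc
GATA2 upstream start, chr3:128493202-128493451, minus strand: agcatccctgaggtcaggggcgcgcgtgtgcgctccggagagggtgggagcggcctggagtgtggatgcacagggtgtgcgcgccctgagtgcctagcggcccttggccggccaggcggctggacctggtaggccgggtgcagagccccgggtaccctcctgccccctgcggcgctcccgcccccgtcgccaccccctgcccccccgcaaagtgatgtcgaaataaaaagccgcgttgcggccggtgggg
GATA2 downstream start, chr3:128488531-128488780, minus strand: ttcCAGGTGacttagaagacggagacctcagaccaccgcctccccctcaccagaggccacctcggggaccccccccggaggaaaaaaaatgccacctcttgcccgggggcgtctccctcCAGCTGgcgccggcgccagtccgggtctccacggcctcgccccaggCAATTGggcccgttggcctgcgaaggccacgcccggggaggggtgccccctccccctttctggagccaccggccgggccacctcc

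A GATA motif (AGATAA or AGATAG or TGATAA or TGATAG, on either strand) was in 0 of these 3 windows, as was the GATA core itself. Of the 35116 RefSeq windows of the same length, 22.3% held such a motif and 45.6% the core. The downstream GATA2 start had 3 E-boxes, and the other starts had 0. E-boxes were in 61.8% of all windows. These letters were searched in the 250 bases before each start only, and the intervals themselves were not searched.

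At GATA1, the GATA1 list held 7 intervals and the TAL1 list 5, and all 5 TAL1 intervals were also GATA1 intervals, with the same start and end. Among all 24658 distinct intervals, 0 overlapped another in part, so every shared interval has 1 common pair of boundaries. The lists may thus come from 1 joint set of intervals, which the labels do not state, and "shared" says only that both lists hold the interval. The first lay upstream, at 48641278 to 48641569, from 3.72 to 3.43 kb before the start, was 292 bp wide and was in both lists. The second, at 48644308 to 48644541, ended 0.46 kb before the start, was 234 bp wide and was also in both lists. These were the upstream intervals of the locus, so both factors were listed at both of them. Between the second interval and the end of the gene, a stretch of 8.19 kb held 0 intervals of either list.

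The next pair lay at the other end of GATA1. An interval of 418 bp, at 48652729 to 48653146, crossed the rounded gene end and was in both lists. After a gap of 203 bp, a second one of 533 bp, at 48653350 to 48653882, lay 0.35 to 0.88 kb beyond the end and was in both lists. Whether intervals this close are separate binding sites or parts of 1 enriched stretch cannot be told, because the lists give neither height nor summit.

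Farther downstream, both factors were listed at 1 interval and GATA1 without TAL1 at 2. The shared interval, at 48658859 to 48659480, lay 5.86 to 6.48 kb beyond the gene end and was 622 bp wide, the widest of the 13. The GATA1-only intervals lay just past it, at 48660011 to 48660611 (601 bp) and 48660801 to 48660980 (180 bp), 530 bp and 189 bp after their neighbours. The intervals without TAL1 were thus the last ones listed downstream in the locus, 7.01 to 7.98 kb beyond the gene and 19.0 kb or more inside the window's end. The next protein-coding gene on that side, in RefSeq's gene order, is HDAC6, which encodes a cytoplasmic deacetylase. Its hg19 position was not used here, so these intervals are not assigned to either gene.

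**Figure D1:**
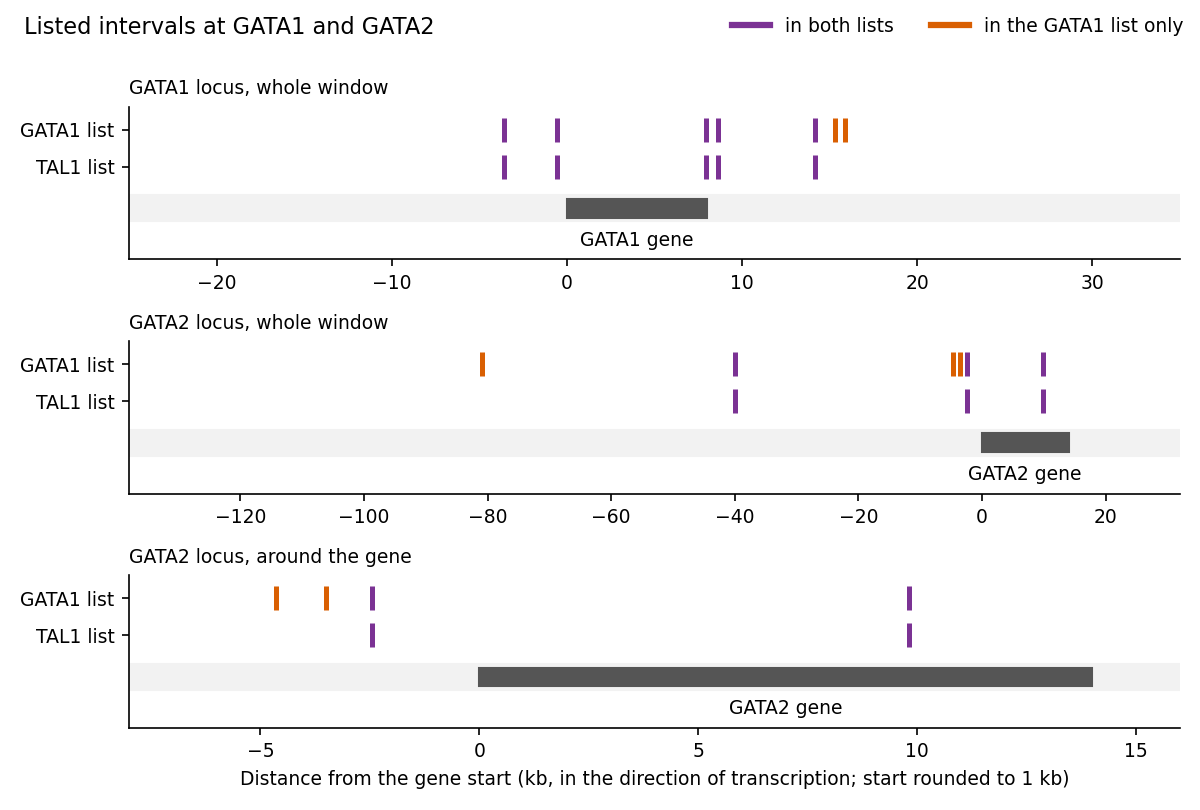
Listed intervals along the GATA1 locus (top), the GATA2 locus (middle) and the stretch around GATA2 (bottom), by distance in kb from the rounded gene start in the direction of transcription. Each tick is the centre of 1 interval, drawn in the row of each list that holds it, and grey bars are the genes. The 7 intervals at GATA1 lie within 19.7 kb, and the 6 at GATA2 are spread from 80.97 kb upstream to 9.96 kb downstream of the start.

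At GATA2, the GATA1 list held 6 intervals and the TAL1 list 3, and all 3 TAL1 intervals were again GATA1 intervals with the same boundaries. Inside the gene there was 1 interval, at 128202045 to 128202313, from 9.69 to 9.96 kb after the start. It was 269 bp wide and was in both lists. GATA2 has a well-known enhancer within an intron, but neither exons nor introns of hg19 were used here, so the interval is placed only as inside the rounded gene limits.

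A group of 3 intervals stood upstream of the GATA2 start. The one nearest the gene, at 128214351 to 128214536 (186 bp), lay 2.54 to 2.35 kb before the start and was in both lists. The others were in the GATA1 list alone. They lay at 128215445 to 128215560 (116 bp, 3.56 to 3.44 kb before the start) and at 128216544 to 128216726 (183 bp, 4.73 to 4.54 kb before it). The gaps within the group were 908 and 983 bp. In this group TAL1 was listed at the gene-proximal interval alone.

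Farther upstream of GATA2 there were 2 single intervals. The nearer, at 128251866 to 128252078 (213 bp), lay about 40.0 kb before the start and was in both lists. The farther, at 128292875 to 128292974 (100 bp), lay 80.97 to 80.88 kb before the start and was in the GATA1 list alone. It was the narrowest of the 13. Beyond it, the remaining 57.0 kb of the window, on the side of the distal enhancer that the selection rule was drawn to include, held 0 intervals of either list. The depth of the libraries is unknown, so a stretch with no listed interval is not shown to be unbound.

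No interval of either locus was in the TAL1 list alone. At GATA1, 5 of 7 GATA1 intervals (71.4%, exact 95% interval 29.0 to 96.3%) were also in the TAL1 list, and at GATA2 3 of 6 were (50%, 11.8 to 88.2%). Over chromosomes 1 to 22 and X the share was 30.9%, or 7029 of 22769 GATA1 intervals. It was 38.7% (33.7 to 43.9%) on chromosome X and 31.7% (29.2 to 34.2%) on chromosome 3. Taken singly, each locus had an exact interval that took in the overall 30.9% and the share of its own chromosome, and the intervals of the loci overlapped each other. Pooled, 8 of 13 GATA1 intervals at the loci were also in the TAL1 list (61.5%, 31.6 to 86.1%). This exact interval lay just above the 30.9%, but it took in the 38.7% of chromosome X and the 31.7% of chromosome 3. The members were chosen with results known and neighbours are not independent, so the pooled value is a description and no test. Read from the TAL1 side, 8 of 8 TAL1 intervals at the loci were GATA1 intervals (exact 95% interval 63.1 to 100%), against 78.9% of the 8914 TAL1 intervals of chromosomes 1 to 22 and X. The exact (Clopper-Pearson) intervals treat intervals as independent, which neighbours are not, and cover counting error only.

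**Figure D2:**
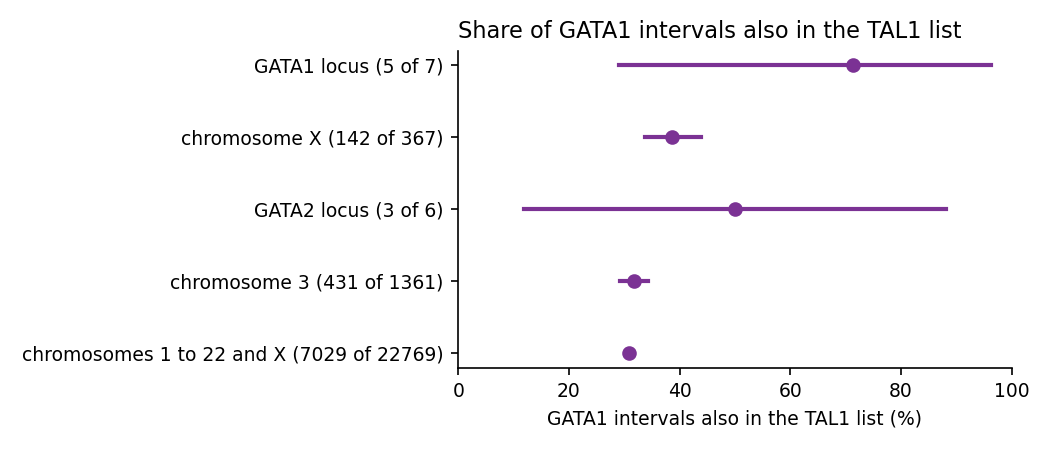
Percentage of GATA1 intervals that are also in the TAL1 list (points), with exact 95% intervals (lines), for each locus, its chromosome and chromosomes 1 to 22 and X, with counts beside the names. The lines of the GATA1 locus (29.0 to 96.3%) and the GATA2 locus (11.8 to 88.2%) both span the overall 30.9%.

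The GATA1 locus was denser in intervals than the GATA2 locus. GATA1 intervals numbered 11.7 per 100 kb at GATA1 and 3.53 per 100 kb at GATA2, against 0.75 per 100 kb over the rest of chromosomes 1 to 22 and X. TAL1 intervals numbered 8.33 and 1.76 per 100 kb, against 0.293. In flanks of 200 kb, GATA1 intervals numbered 2.5 per 100 kb below and 4.0 above the GATA1 window. They numbered 3.0 below and 2.0 above the GATA2 window, so the 3.53 at GATA2 was near the values of its own flanks. The densities at the loci follow in part from the windows. The window at GATA2 reaches 138 kb upstream of the gene and the one at GATA1 reaches 25 kb. The genome was therefore divided into tiles of each window's own length. Of the 50594 tiles of 60 kb, 0.476% held at least 7 GATA1 intervals, 0.202% at least 5 TAL1 intervals and 0.128% at least 5 shared intervals. Of the 17850 tiles of 170 kb, 6.9% held at least 6 GATA1 intervals, 6.17% at least 3 TAL1 intervals and 4.5% at least 3 shared intervals. Many tiles held no interval at all. Assembly gaps were not left out of the tiles, and their part in this was not counted. Of the 10833 tiles of 60 kb with any GATA1 interval, 2.22% reached the count of the GATA1 locus. Of the 5891 with any TAL1 interval, 1.73% reached its TAL1 count, and of the 4839 with any shared interval, 1.34% reached its shared count. Of the 6528 tiles of 170 kb with any GATA1 interval, 18.9% reached the count of the GATA2 locus. Of the 4428 with any TAL1 interval, 24.9% reached its TAL1 count, and of the 3762 with any shared interval, 21.4% reached its shared count. The GATA1 count at GATA2 was thus reached by 6.9% of all tiles of its length and by 18.9% of those with any GATA1 interval. The windows were drawn around genes of interest and the tiles were not, so these shares describe the counts and are no test.

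**Figure D3:**
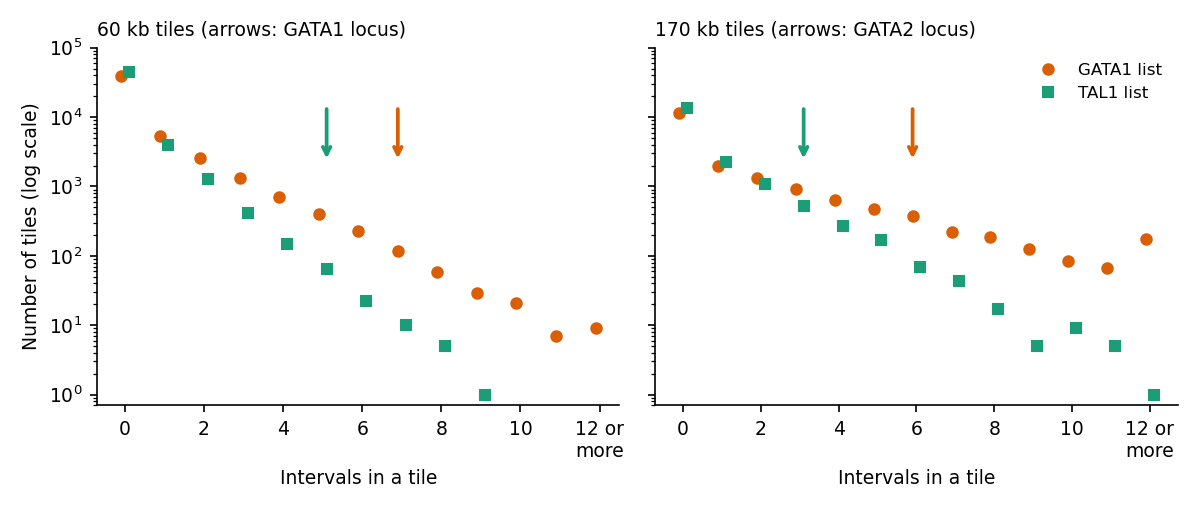
Number of tiles (log scale) by the number of GATA1 intervals (circles) or TAL1 intervals (squares) that they hold, for tiles of 60 kb (left) and 170 kb (right) on chromosomes 1 to 22 and X. Arrows mark the counts at the GATA1 locus (7 and 5) and at the GATA2 locus (6 and 3).

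Spacing differed between the loci. Joining intervals of either list across gaps of at most 10 kb put all 7 intervals of the GATA1 locus into 1 cluster of 19.7 kb, at 48641278 to 48660980. The same step left 4 units at GATA2, namely the upstream group of 3 intervals, which spanned 2.38 kb, and 3 single intervals. Of 15417 clusters and single intervals over chromosomes 1 to 22 and X, 0.765% held 7 or more intervals and 13.6% held 3 or more. Among the 49 clusters of exactly 7 intervals, the median number of shared intervals was 2, and 8 clusters (16.3%) had at least the 5 found at GATA1. Their median span was 21.0 kb, close to that of the GATA1 cluster. Among the 1173 clusters of 3, 60.0% had at least 1 shared interval, as the GATA2 group did. The median span of those clusters was 6.89 kb, and 17.0% were as short as the group at GATA2.

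Intervals were narrower at GATA2 than at GATA1. At GATA2, widths were 100 to 269 bp with a median of 184.5 bp, and at GATA1 they were 180 to 622 bp with a median of 418 bp. All 3 shared intervals at GATA2 (186, 213 and 269 bp) were narrower than the lower quartile of the 7029 shared intervals (270 bp, with a median of 373 bp). The 3 GATA1-only intervals at GATA2 (100, 116 and 183 bp) were all below the median of 264 bp of the 15740 GATA1-only intervals. Of these 3, 2 (100 and 116 bp) were also below the lower quartile of that class (168 bp). The smallest width listed was 85 bp. At GATA1, 3 of 5 shared intervals (418, 533 and 622 bp) were wider than the shared median and the upstream ones (234 and 292 bp) were narrower. The ranges of the loci overlapped, between 180 and 269 bp. A shared interval has 1 pair of boundaries for both lists, so its width is no separate measure of either factor, and width is not height.

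**Figure D4:**
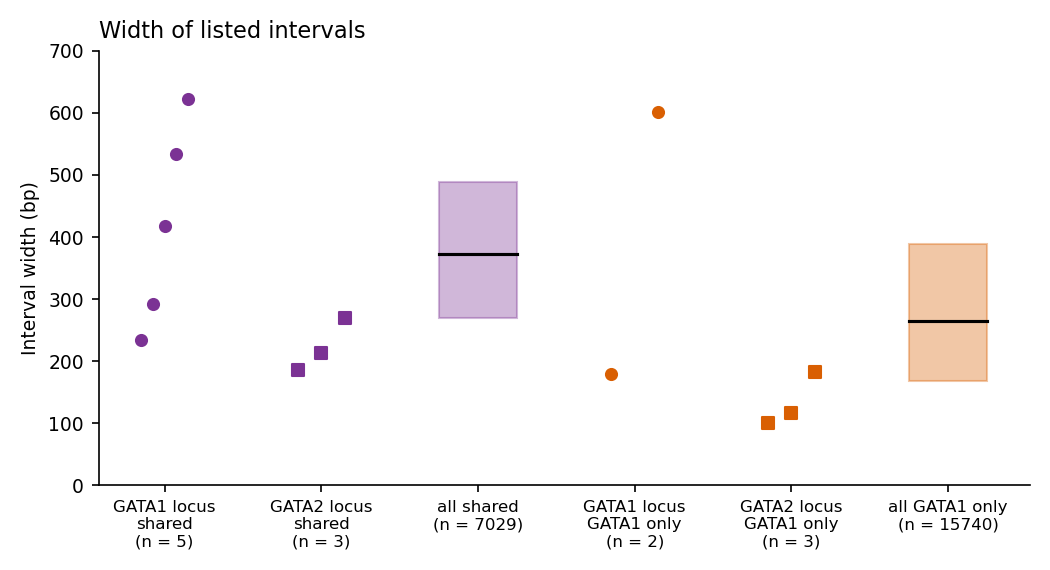
Width in bp of every interval at the GATA1 locus (circles) and the GATA2 locus (squares), by whether it is in both lists or in the GATA1 list alone. Boxes give the interquartile range and black lines the median of all intervals of the same class on chromosomes 1 to 22 and X; all 6 intervals at GATA2 lie below the median of their class.

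Beyond the windows, long stretches without an interval lay on both sides of the GATA1 cluster and on the upstream side of the GATA2 intervals. The nearest interval below the GATA1 window, at 48560330 to 48560782, was in the TAL1 list alone and lay 59.2 kb outside it, which left 80.5 kb without an interval up to the first one at GATA1. The nearest above it, at 48755004 to 48755752, was in the GATA1 list alone, and 94.0 kb separated it from the last interval of the cluster. At GATA2, the nearest interval below the window (128175977 to 128176262, GATA1 only) lay 3.74 kb outside it, on the 3′ side of the gene, and 25.8 kb from the first interval within. The nearest above (128399448 to 128400188, GATA1 only) lay 49.4 kb outside it, on the upstream side, and 106 kb from the last interval within. In flanks of 200 kb, GATA1 intervals numbered 5 below and 8 above the GATA1 window, with 1 and 2 of them shared. They numbered 6 below and 4 above the GATA2 window, with 2 shared on each side.

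**Figure D5:**
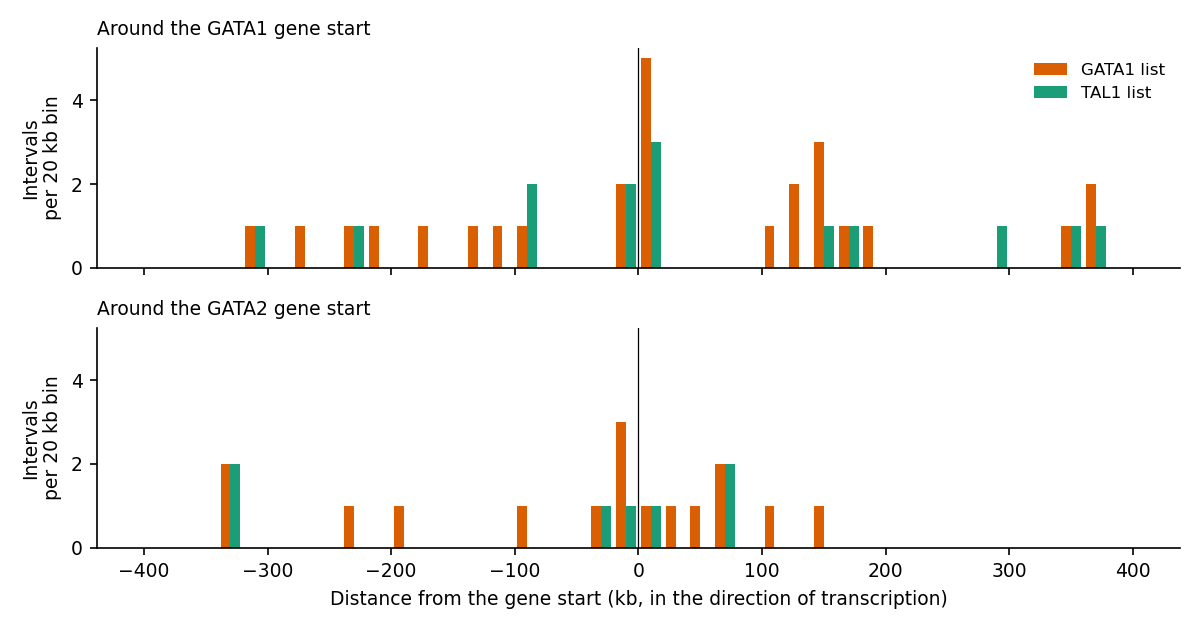
Intervals of the GATA1 list and the TAL1 list in bins of 20 kb within 400 kb of each rounded gene start, in the direction of transcription. The fullest bin of the GATA1 list holds 5 intervals at GATA1, 0 to 20 kb after the start. The nearest of these 5 begins 7.73 kb after the start. At GATA2 the fullest bin holds 3 intervals, 0 to 20 kb before the start. The bins beside the GATA1 cluster are empty on both sides.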

How the data were processed

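ChIP-seq intervals of the GATA1 and TAL1 libraries of control K562 cells were used. The deposited lists give chromosome, start and end only, so the position of an interval is the only value and no height, fold, p-value or depth was at hand. Trimmomatic, Bowtie2, MACS2, deepTools and build hg19 are named per the submitters' processing notes, without versions or thresholds, and pooling was not stated there. No interval overlapped another in part, so "shared" means the same start and end in both lists. The 4 TAL1 intervals on the mitochondrial sequence were left out of comparisons. Windows and rounded gene limits came from the selection rule. The members and lists were chosen with earlier results of these data known. Every interval of both loci is reported.

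Counts used Python 3.11.15, numpy 2.4.6, pandas 2.3.3 and scipy 1.17.1 (exact 95% intervals), chromosome lengths and bands circlize 0.4.16, figures matplotlib 3.10.9. Counting was checked on simulated lists. Tiles counted interval centres. Alternatives changed the overlap, window, width, joining gap and tile offset. No paired analysis was possible because each group has 1 library.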

Additional observations from a re-analysis of the deposited data

How the results depend on the processing

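Counting overlaps of at least 1 bp could change none of the 3 shares, because no interval overlapped another in part. Of the 34 other alternative values, 26 stayed within 1.5 times the count or within the exact interval of the share, and 8 did not. Keeping intervals that reached the median width of their own list (298 bp for GATA1, 352 bp for TAL1) lowered the counts at GATA1 to 4 GATA1, 3 TAL1 and 3 shared intervals, and those at GATA2 to 0, 0 and 0, which follows from the narrow widths there. Joining at 5 kb divided the GATA1 cluster into 2, at its widest gap. With intervals counted as shared when their edges lay within 1000 bp, the overall share was 34.5%, and the shares at the loci were 85.7% at GATA1 (6 of 7, exact 95% interval 42.1 to 99.6%) and 66.7% at GATA2 (4 of 6, 22.3 to 95.7%). Under that rule the exact interval at GATA1 lay above the overall share, which it took in when boundaries had to be the same. The rule counts a GATA1-only interval as shared when a TAL1 interval lies near, so closely spaced intervals gain by it. The GATA1-only interval that it added at GATA1 lay 530 bp after a shared one, and that at GATA2 lay 908 bp from one. Neighbours are not independent and no share of chromosome X was computed under this rule, so the excess is a description and no test. Widening the windows by 20 kb added 1 GATA1 interval at GATA2 and 0 at GATA1. No paired analysis was possible because each group has 1 library, and no replicate could be left out. Motifs within intervals, and intervals at other genes of the GATA family and at partner genes, were not run, since no hg19 sequence or gene positions were used here. Depth is unknown, so absence from a list is no measure of absent binding.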

Other observations

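The RefSeq windows of 250 bases before gene starts were also searched for other genes of the GATA family and for partners and regulators of GATA1 and GATA2. Of 15 such genes, 10 matched, with 17 windows. A GATA motif was in 3 of the 17 windows (17.6%), against 22.3% of all 35116 windows, and these belonged to GFI1B, KLF1 and TAL1. GATA3 alone had 6 of the 17 windows, of which 0 held a GATA motif. Counted by gene, 3 of the 10 had a GATA motif. GFI1B encodes a transcriptional repressor of the erythroid and megakaryocytic lineages, and KLF1 an activator of erythroid genes. An E-box was in 7 of the 17 windows (41.2%), against 61.8% of all windows. The composite of an E-box part and a GATA core (CTG, then 7 or 8 bases of any kind, then GATA, on either strand) was in 1 of the 17 windows, that of KLF1, against 3.18% of all windows. It was in 0 of the 3 windows of GATA1 and GATA2. These are letters in fixed windows of build GRCh38.p14 and were not compared with the intervals, so they say nothing of binding.

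Over the whole windows, the median gap between neighbouring intervals was shorter at GATA1 than at GATA2. The 6 gaps at GATA1 had a median of 1.63 kb, and 3 of them were at most 1 kb. The 5 gaps at GATA2 had a median of 12.0 kb, and 2 were at most 1 kb. This order depends on the windows, since the one at GATA2 takes in single intervals 40.0 and 80.9 kb upstream. The 4 intervals in the GATA2 gene and 10 kb on each side had gaps of 12.0 kb, 908 bp and 983 bp. Over chromosomes 1 to 22 and X, gaps between neighbouring GATA1 intervals had a median of 20.9 kb, and 13.8% were at most 1 kb.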
